A study of Mus musculus with 6 samples.

Results

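The 31 genes described here are imprinted genes of mouse loci other than the Dlk1-Dio3 and Igf2-Cdkn1c clusters. They were taken by symbol from a list and not by a threshold on these counts, but the list was chosen with earlier results of these data known. All 31 have a row among the 23329 gene rows of the count tables, and 26 passed the filter on low counts and were tested with 13478 genes in all. The samples are primary cultures of mesenchymal cells from the small intestine of C57 mice, 3 from embryos at day 14.5 (E14.5) and 3 from adults, their age not given in the sources used here. Labels name no mutation or transgene in either group. All cultures were grown in serum with Y27632, and RNA was taken at passage 2 to 3. Villi were scraped off the opened adult gut, while the embryonic gut was cut into pieces. Both were then stripped of epithelium with a chelating buffer and digested with collagenase and dispase, so stage and the first handling step cannot be told apart. Whether the cultures within a group derive from different animals is not said in the labels, so the p-values measure only the spread between these samples.

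An imprinted gene is expressed mainly from the allele inherited from a single parent, because methylation laid down in the egg or the sperm persists at a control region nearby. Many paternally expressed imprinted genes are known to favour fetal growth and many maternally expressed ones to restrain it. A large share of imprinted genes are known to be abundant in fetal mesoderm and to decline after birth. The reads were not split by allele, so each value below is the sum over both alleles. The parental allele named for a gene is textbook background.

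Library totals ranged from 18850224 to 32672370 gene counts. The labelled cell type matched its markers in part. Vim measured 3049 to 3918 CPM (read counts relative to the TMM-scaled library size) and Acta2 8666 to 15462 CPM over the 6 libraries. The fibroblast receptor gene Pdgfra measured only 2.47 to 4.45 CPM at E14.5 beside 29.5 to 81.0 CPM in adult cultures. Col1a2 and Thy1 also lay below all adult libraries at E14.5, with log2 fold changes of -1.27 and -1.72 beside -3.72 for Pdgfra. Of the 8, 3 lay below all adult libraries at E14.5 and 0 above. By fitted value 2 were higher at E14.5, Col1a1 with means of 9496 and 5279 CPM and Dcn with 2640 and 1869 CPM in embryonic and adult cultures. The epithelial marker Epcam stayed at or below 0.141 CPM. The 13 leukocyte markers with a row had summed levels of 234, 458 and 2783 CPM in the 3 embryonic libraries, in replicate order, against 203, 24.9 and 52.4 CPM in the adult ones, with none at 0 in all libraries. The 12 endothelial markers had summed levels of 22.8 to 44.1 CPM in the embryonic libraries. In the adult ones, in replicate order, the sums were 31.0, 1941 and 430.9 CPM. Marker sums of other cell types thus differed between libraries, and their part in the results was not tested. In bulk RNA, fewer cells of a type and less RNA per cell cannot be told apart.

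The imprinted genes leaned toward higher levels in the embryonic cultures, but none passed the test. Since they were chosen with earlier results of these data known, the shares below describe the list and are not independent evidence. The fitted level of 11 of the 26 was at least 2-fold higher in E14.5, where 6.9% of all tested genes were, and 0 were at least 2-fold lower, where 7.29% were. The 11 were led by the amino acid transporter gene Slc38a4 and the zinc finger genes Peg3, Zim1, Zdbf2 and Plagl1, and ended with the signalling adaptor gene Grb10. A second set, with Gnas, Impact, Copg2 and Ube3a, had log2 fold changes between -0.08 and 0.02. In edgeR's quasi-likelihood test 0 of the 26 had an adjusted p under 0.05, where 1.08% of all tested genes did (146 of 13478), 0.245% higher and 0.838% lower. The lowest adjusted p was 0.0552, for Plagl1. At an unadjusted p under 0.05 there were 12 (17.9% of all genes), 10 of them higher and 2 lower in E14.5, where 8.64% of all tested genes were higher and 9.26% lower at that level. DESeq2 called 11 members (10.6% of all genes), 9 higher and 2 lower, where it called 5.13% of all tested genes higher and 5.46% lower. Limma-voom called 0, where it called 0.927% of all genes. For 11 members every E14.5 library lay above every adult library and for 2 every one lay below, where the shares over all tested genes were 12.1% and 12%, or 24.1% in either direction. The median log2 fold change, taken as E14.5 over adult throughout, was 0.65 over the 26 and 0.01 over all tested genes. Of the 26 values 18 were positive, where 51.5% of all tested genes were.

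The count of members called by edgeR depended on the setting. It was 1 with upper-quartile scaling and 2 with library size alone, where 0.942% of all genes passed under each. With no filter it was 1 (0.822% of all genes). It was 0 with DESeq2 size factors (1.09%), with a filter of 1 CPM in 3 libraries (1.21%), with the unstranded column (1.07%) and with the title prefix as a block (0.0148%). Leaving out E14.5 replicate 2 gave 2 members and 3.42% of all genes. Leaving out E14.5 replicate 1 or 3 gave 0 members and 0.0218% or 0.807% of all genes, and leaving out adult replicate 1, 2 or 3 gave 0 members and 0.274%, 0.334% or 0.0217%. With the filter of 1 CPM in 3 libraries the median was 0.39 over the 24 members left. The 10-count level was reached in all 6 libraries by 24 of the 26, the exceptions being Slc38a4 and Asb4.

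**Figure D1:**
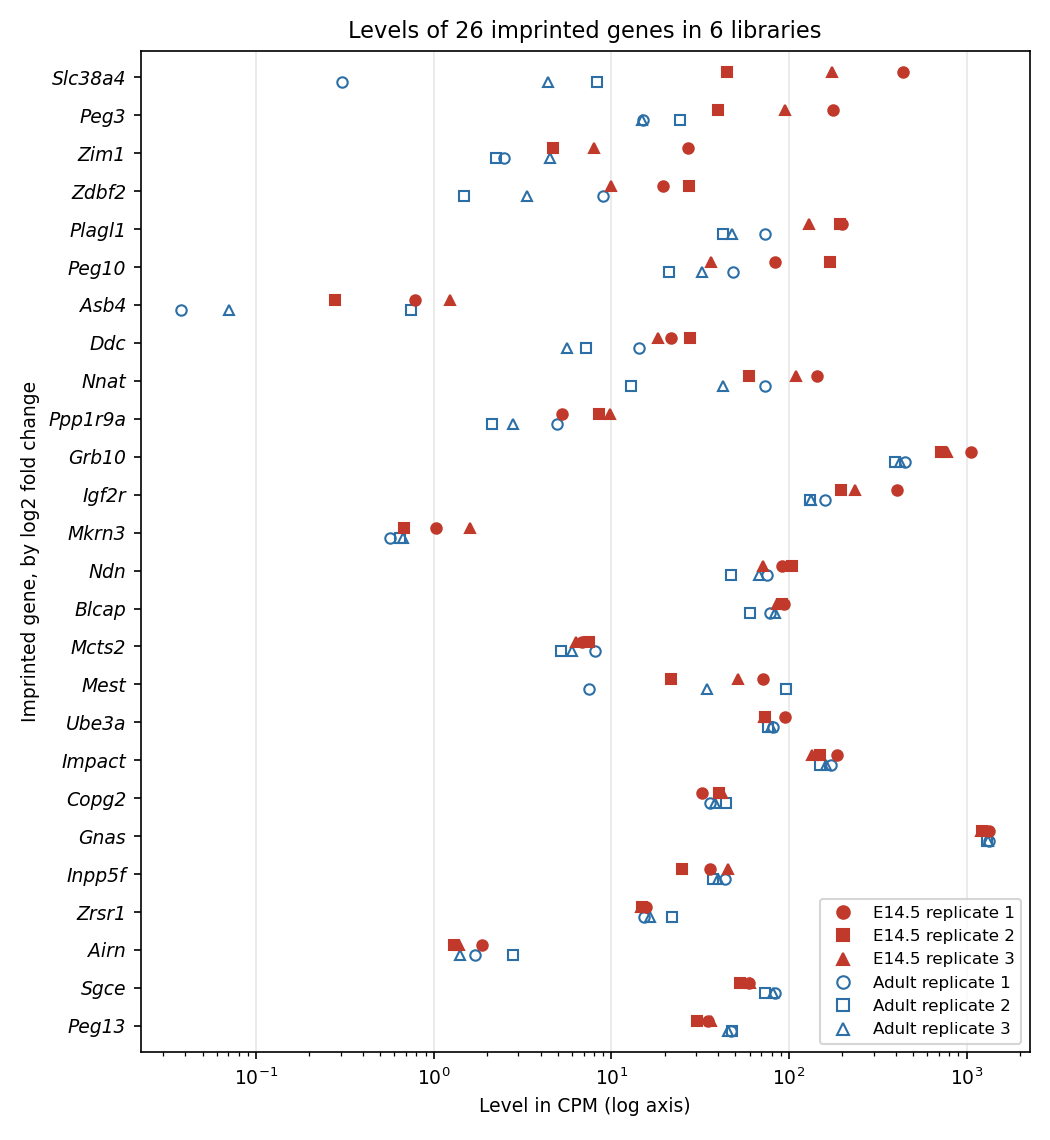
Level of the 26 tested imprinted genes in each library, in CPM on a log axis. Filled red symbols are the 3 E14.5 libraries and open blue symbols the 3 adult libraries, with genes ordered by log2 fold change. The red symbols lie apart from the blue ones for Slc38a4, Peg3 and Plagl1 and among them for Gnas, Impact and Copg2.

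The cation-independent mannose 6-phosphate receptor, encoded by Igf2r, binds IGF2 at the cell surface and carries it to the lysosome. The gene is expressed from the maternal allele, and the paternal allele is silenced by transcription of the antisense RNA Airn across its promoter. Igf2r lies on mm10 chromosome 17 from 12682406 to 12769664 on the minus strand, with Airn on the other strand from 12741311 to 12860136. Igf2r measured 406, 197 and 235 CPM in E14.5 libraries 1, 2 and 3, and it measured 160, 132 and 133 CPM in adult replicates 1, 2 and 3. All E14.5 values lay above all adult values, and replicate 1 stood above the other two. The fitted log2 ratio was 0.98 (SE 0.28, adjusted p = 0.151, edgeR), and 0.60 with E14.5 replicate 1 dropped. Airn measured 1.88, 1.30 and 1.39 CPM among embryonic cultures versus 1.70, 2.78 and 1.41 CPM in adults, and the groups overlapped. Its log2 fold change was -0.36 (SE 0.39). The ratio of Igf2r to Airn counts was 216, 151 and 169 in E14.5 and 93.6, 47.4 and 94.9 in adults, and the groups did not overlap. An exact two-sided permutation test of this ratio gave p = 0.1, the smallest that 3 libraries against 3 allow, and 0.3 after adjustment over the 6 neighbouring pairs compared. Of these, Peg10 to Sgce also did not overlap. The other 4 overlapped, with exact permutation p of 0.2 for Nnat to Blcap, 0.6 for Mest to Copg2, and 0.4 for both Peg3 to Zim1 and Grb10 to Ddc. The mean log2 ratio of Grb10 to Ddc differed by -0.44, the only negative value of the 6. Airn is largely unspliced and not fully polyadenylated, so libraries would measure it poorly where they are made from poly(A) RNA. Its annotated exons hold only 3597 bases of the span given above. A count over exons would thus cover a small part of Airn, which limits the ratio of Igf2r to Airn.

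GRB10 is an adaptor that binds the insulin and IGF1 receptors and dampens their signal. Its gene is known to be maternally expressed in most tissues and paternally in neurons. It lies on chromosome 11 from 11930508 to 12038683 on the minus strand. Grb10 measured 1059, 715 and 773 CPM in the embryonic libraries against 453, 397 and 423 CPM in adult cultures. The 3 adult values were close together, and the groups were well apart. This is a log2 fold change of 1.00 (SE 0.18, adjusted p = 0.0688, edgeR), and the adjusted p was 0.0677 with limma-voom and 3.16e-05 with DESeq2, with a range over all alternatives up to 0.289. The upstream stretch of the Grb10 start that RefSeq lists on GRCm38.p6, chr11:12037429-12037670 on the minus strand, is shown because it is rich in CpG pairs at a gene whose groups were well apart. Capitals mark its 40 CpG pairs. Methylation was not measured in these samples.

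Grb10: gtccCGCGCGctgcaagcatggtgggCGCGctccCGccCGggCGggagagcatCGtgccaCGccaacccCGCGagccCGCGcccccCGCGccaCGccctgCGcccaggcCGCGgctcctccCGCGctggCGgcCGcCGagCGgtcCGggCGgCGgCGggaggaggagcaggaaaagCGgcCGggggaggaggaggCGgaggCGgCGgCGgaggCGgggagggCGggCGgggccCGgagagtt

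Ddc, the neighbour of Grb10, encodes the decarboxylase that makes dopamine and serotonin, and is imprinted only in a heart isoform. It lies on chromosome 11 from 11814101 to 11898144. Its level was 21.7, 27.9 and 18.3 CPM at E14.5 beside 14.3, 7.201 and 5.66 CPM in adult cultures, again with no overlap. In log2 units the difference was 1.32 (SE 0.38, adjusted p = 0.150, edgeR). In the gut, Ddc is typical of enteroendocrine cells and enteric neurons. The enteroendocrine gene Tph1 measured 9.82, 8.01 and 0.278 CPM among embryonic cultures versus 0.871, 0.0497 and 0.738 CPM in adults. Chga, the other enteroendocrine gene of the list, measured 0.813, 0.186 and 0.371 CPM against 0.0379, 0 and 0 CPM. E14.5 replicate 3 thus lay above all adult libraries in Ddc and Chga but not in Tph1, and the part of such cells in the Ddc level was not tested. The 9 epithelial markers with a row summed to 1.58 to 11.1 CPM at E14.5 and 1.04 to 1.78 CPM among adults, and of these Cdx2 and Fabp2 had no counts in any library.

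Plagl1, Peg3, Zim1 and Zdbf2 encode zinc finger proteins. PLAGL1 (ZAC1) is a transcription factor that inhibits proliferation and is known to regulate other imprinted genes. Its gene, paternally expressed, lies on chromosome 10 from 13060504 to 13131694. Plagl1 measured 199.6, 195 and 130 CPM in the embryonic libraries against 73.1, 42.8 and 48.0 CPM in adults. The E14.5 libraries were all far above the adults. The stages differed by a log2 value of 1.68 (SE 0.27), a 3.20-fold difference, with adjusted p = 0.0552 in edgeR and 0.0533 in limma-voom. Plagl1 passed at adjusted p = 0.0441 with upper-quartile scaling, 0.0340 with library size alone and 0.0444 with no filter, and its adjusted p over all alternatives ran from 1.05e-06 to 0.246. Upstream of its RefSeq start, chr10:13090582-13090690 on the plus strand of GRCm38.p6 holds the 7 CpG pairs in capitals.

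Plagl1: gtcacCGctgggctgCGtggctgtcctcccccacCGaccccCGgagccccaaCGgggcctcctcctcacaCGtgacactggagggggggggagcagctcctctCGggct

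Peg3 is a paternally expressed gene for a large zinc finger protein with roles in fetal growth and maternal behaviour, and Zim1 is its maternally expressed neighbour. Peg3 lies on chromosome 7 from 6703892 to 6730431 and Zim1 from 6671269 to 6696450, both on the minus strand. Peg3 measured 178, 40.1 and 95.2 CPM at E14.5 beside 15.1, 24.4 and 14.9 CPM in adults. The groups did not overlap, but E14.5 replicate 2 was much nearer to the adults than the other embryonic libraries. The log2 difference was 2.53 (SE 0.55, adjusted p = 0.0995, edgeR). Zim1 followed the same order of E14.5 libraries, with 27.2, 4.72 and 8.03 CPM against 2.499, 2.23 and 4.50 CPM in adults, and a log2 fold change of 2.11 (SE 0.71, adjusted p = 0.198). E14.5 replicate 2 lay only just above adult replicate 3. With E14.5 replicate 1 left out the Zim1 value was 1.04, and without E14.5 replicate 2 Peg3 passed at 2.92 (adjusted p = 0.0264, edgeR, within a range of 4.45e-05 to 0.363 over all alternatives).

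Usp29, a ubiquitin protease gene that starts beside Peg3 on the opposite strand, had 8, 7 and 7 counts in E14.5 and 1, 1 and 0 in adult libraries and was not tested. The stretch between the RefSeq spans of Peg3 and Usp29, chr7:6730463-6730558, is shown in the direction of Peg3 because it separates these genes. Their GENCODE starts, 6730431 for Peg3 and 6730578 for Usp29, lie just outside this stretch. It holds 3 CpG pairs, in capitals. On its Peg3 side, the gene had 1291 to 5694 counts per E14.5 library, and Usp29 on the other side had 7 to 8.

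Peg3: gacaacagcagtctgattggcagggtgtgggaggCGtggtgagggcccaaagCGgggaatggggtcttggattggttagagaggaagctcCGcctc

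Zdbf2, a paternally expressed zinc finger gene linked to feeding and growth after birth, lies on chromosome 1 from 63273265 to 63314576. It measured 19.5, 27.5 and 9.95 CPM among embryonic cultures versus 8.93, 1.49 and 3.38 CPM in adults. The groups were adjacent, since E14.5 replicate 3 was only slightly above adult replicate 1. The fitted log2 ratio was 2.04 (SE 0.70, adjusted p = 0.206, edgeR). Its order among the E14.5 libraries was not that of Peg3: replicate 2, the lowest for Peg3, was the highest for Zdbf2.

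Slc38a4 encodes a transporter of neutral and cationic amino acids and is paternally expressed in fetal tissues and placenta, where its imprint is known to depend on a histone mark. It lies on chromosome 15 from 96994820 to 97055956 on the minus strand. Slc38a4 measured 440, 44.9 and 175 CPM in the embryonic libraries against 0.303, 8.34 and 4.43 CPM in adult cultures. Adult replicate 1 had only 8 counts, and the level spread 9.79-fold within E14.5 and 27.5-fold within the adults. This is a log2 fold change of 5.67 (SE 1.33), a 51.0-fold difference and the widest of the members, with adjusted p = 0.111 in edgeR, 0.205 in limma-voom and 3.91e-04 in DESeq2, and up to 0.387 over all alternatives. Leaving out single libraries moved it between 4.66, without the first E14.5 culture, and 6.52, without the second adult culture. The enteric glial markers, 8 genes of which none was at 0 in all libraries, summed to 14.8, 1.12 and 10.4 CPM at E14.5 beside 1.70, 4.47 and 2.53 CPM in adults. The 7 pericyte markers, all detected, summed to 1214, 697 and 722 CPM against 1192, 1080 and 1134 CPM. Among them Rgs5 measured 240 CPM in E14.5 replicate 1, 15.7 in replicate 2 and 72.9 in replicate 3, against 1.93, 7.75 and 1.76 CPM. Kcnj8 and Abcc9 were also above all adult libraries and Cspg4 and Pdgfrb below. The glial sum, Rgs5, Kcnj8 and Abcc9 were, like Slc38a4, lower in E14.5 replicate 2 than in replicates 1 and 3. So were the fibroblast marker sum and the smooth muscle genes Myh11 and Actg2, but not Acta2 or Des. The low level in replicate 2 was thus not particular to glial or pericyte markers. The part of any cell type in the Slc38a4 result was not tested. The stretch upstream of the RefSeq start farthest from the gene's end, chr15:97055957-97056206 on the minus strand, is shown for contrast with Grb10, since its 250 bases hold only 3 CpG pairs, in capitals.

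Slc38a4: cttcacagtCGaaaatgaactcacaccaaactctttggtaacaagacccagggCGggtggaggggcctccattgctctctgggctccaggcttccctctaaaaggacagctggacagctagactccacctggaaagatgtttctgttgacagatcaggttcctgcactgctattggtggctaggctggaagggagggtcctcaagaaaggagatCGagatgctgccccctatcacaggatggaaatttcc

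Over all 32851 RefSeq promoter windows of 300 bases, the median was 7 CpG pairs. The 41 windows of 26 members, some of which overlap each other, had a median of 15. In order of log2 fold change, the count was 5 in each of the 3 Slc38a4 windows, 13 for Peg3, 20 for Zim1, 15 and 38 for Zdbf2, and 26 for Plagl1. Farther down that order, Asb4 had 6 and 8, Ddc 5 and 2, Nnat 17, Ppp1r9a 10 and 48, Grb10 9 and 45, and Igf2r 34. Members with higher fitted levels in E14.5 thus had both CpG-poor and CpG-rich windows. The hexamer TGCCGC, which ZFP57 binds when it is methylated, was found on either strand in 11 of the 41 windows and in 11.6% of all windows. The 11 include the same window listed for both Snrpn and Snurf, and overlapping windows of Mest. The hexamer itself holds a CpG pair, and the member windows had more CpG pairs, so no excess is read from these shares. A match is a description of the letters and not evidence of binding.

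**Figure D2:**
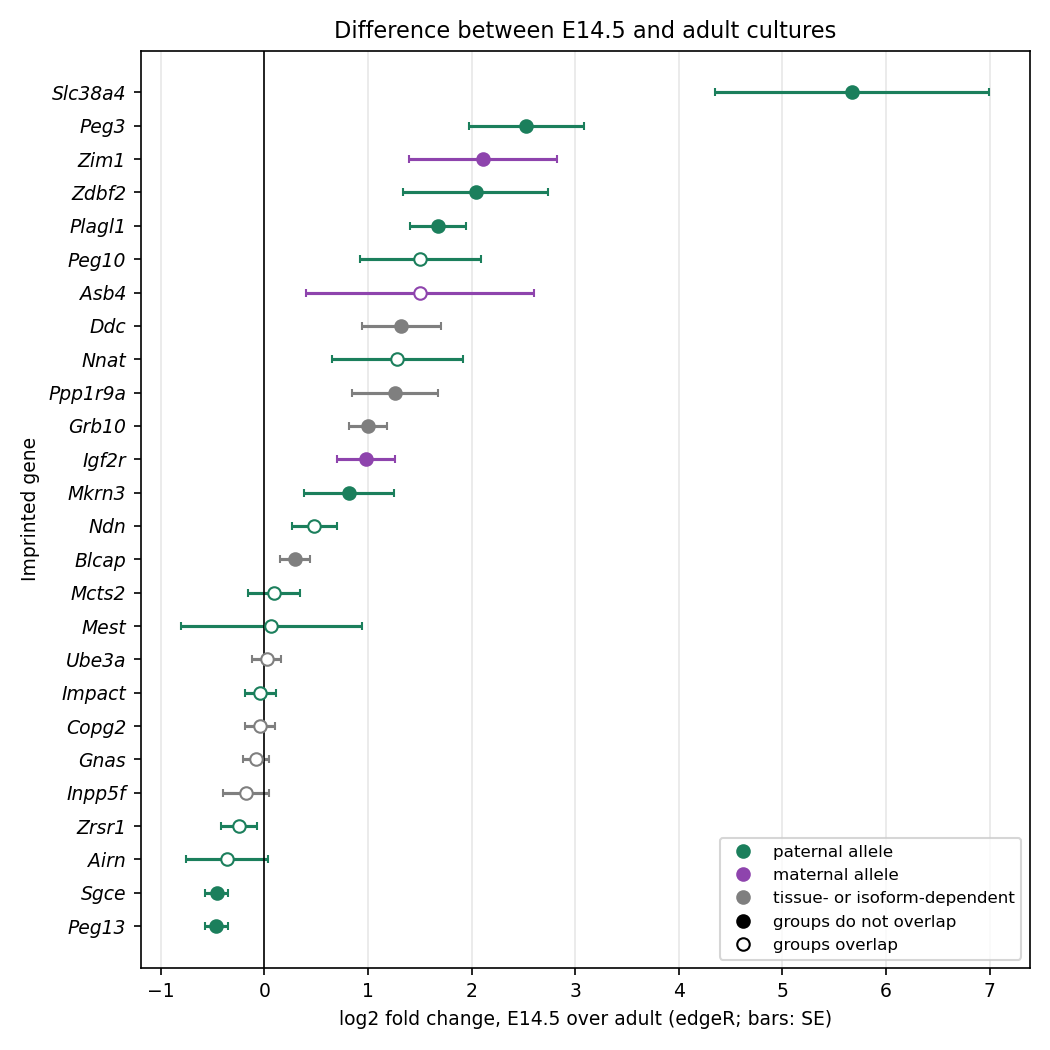
The log2 fold change of E14.5 over adult cultures for the 26 tested genes, with bars of 1 SE from edgeR. Green marks genes known for paternal expression, purple maternal, grey tissue- or isoform-dependent, and filled symbols mark the 13 genes whose groups did not overlap. Values run from -0.46 for Peg13 to 5.67 for Slc38a4.

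The Peg10-Sgce locus on chromosome 6 held genes with fitted values of either sign. Peg10, derived from a retrotransposon and needed for the placenta, and Sgce, for epsilon-sarcoglycan of the dystrophin complex, are paternally expressed and start at positions 4747306 and 4747207, facing apart. Peg10 measured 84.0, 170 and 36.4 CPM among embryonic cultures versus 48.6, 21.2 and 32.5 CPM in adults. Only E14.5 replicates 1 and 2 lay above all adults. Its E14.5-to-adult log2 ratio was 1.50 (SE 0.59, adjusted p = 0.254, edgeR), and it was 0.82 without E14.5 replicate 2. Sgce measured 59.8, 53.2 and 60.3 CPM in the embryonic libraries against 83.8, 73.3 and 81.7 CPM in adults, so each E14.5 library was below each adult library by a small margin. In log2 units the difference was -0.46 (SE 0.11, adjusted p = 0.111 in edgeR and 0.00605 in DESeq2, within a range up to 0.392). The ratio of Peg10 to Sgce counts was 1.41, 3.19 and 0.603 in E14.5 and 0.580, 0.289 and 0.397 in adults. The exact permutation p was 0.1, the smallest possible here, or 0.3 adjusted, so the test could not decide. The ratio was higher in E14.5 in every library, narrowly in replicate 3.

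Farther along the locus, Ppp1r9a encodes neurabin, an actin-binding scaffold of protein phosphatase 1, and is maternally expressed in some tissues. It measured 5.25, 8.53 and 9.89 CPM at E14.5 beside 4.92, 2.14 and 2.81 CPM in adults, without overlap but with E14.5 replicate 1 close to adult replicate 1. The fitted value was a log2 difference of 1.26 (SE 0.41, adjusted p = 0.187, edgeR). Asb4, a maternally expressed gene for a substrate adaptor of ubiquitin ligases, was near the detection limit with 25, 9 and 40 counts in E14.5 and 1, 15 and 2 counts in adults. Adult replicate 2 lay above E14.5 replicate 2, and the log2 fold change of 1.50 (SE 1.10) was 3.71 without adult replicate 2 and 0.95 with adult replicate 1 dropped.

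**Figure D3:**
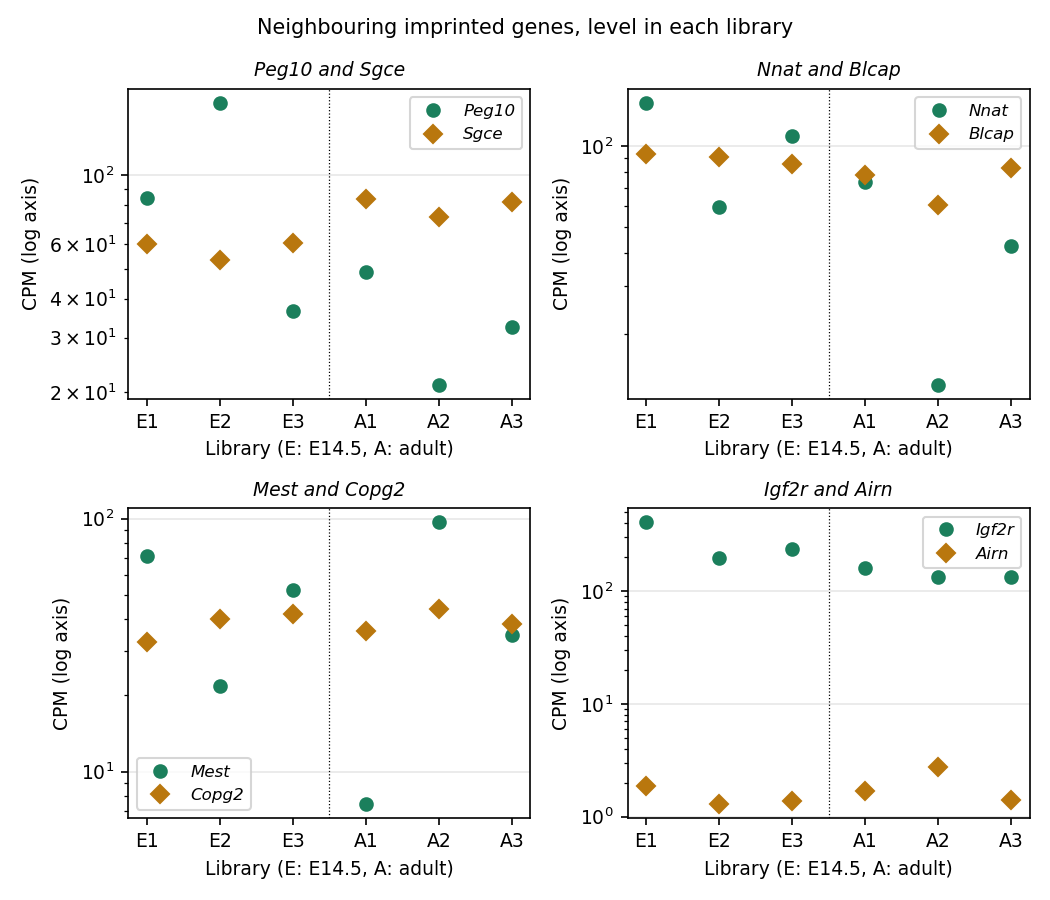
Levels of 4 pairs of neighbouring imprinted genes in each library, in CPM on a log axis that differs between panels. Levels are to be read along each gene, since CPM also depends on transcript length. Sgce, Blcap and Copg2 vary less across libraries than Peg10, Nnat and Mest, and Sgce lies lower in every E14.5 library than in any adult library.

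In the Prader-Willi and Angelman domain of chromosome 7, Ndn and Ube3a were well expressed, while Mkrn3 and Magel2 were close to the limit of detection. Necdin, the product of Ndn, is a growth suppressor of the MAGE family and is paternally expressed. Ndn measured 91.5, 105 and 71.0 CPM among embryonic cultures versus 75.4, 47.4 and 68.2 CPM in adults. The groups overlapped, with a log2 fold change of 0.48 (SE 0.22, adjusted p = 0.327, edgeR). Magel2, a MAGE gene for a regulator of endosomal sorting, had 4, 2 and 1 counts in E14.5 and 0 in each adult library, where 3 counts correspond to 0.114, 0.149 and 0.106 CPM. Both stages were therefore at the limit of detection, and it was not tested. Mkrn3, which encodes a ubiquitin ligase that restrains puberty, measured 1.03, 0.683 and 1.61 CPM in the embryonic libraries against 0.568, 0.646 and 0.668 CPM in adults. Its groups did not overlap by a very narrow margin (log2 fold change 0.82, SE 0.43, adjusted p = 0.400, edgeR), and the value was 0.45 with E14.5 replicate 3 dropped. Ube3a, the ubiquitin ligase gene of Angelman syndrome, imprinted only in neurons, measured 95.0, 73.8 and 71.96 CPM at E14.5 beside 81.6, 76.3 and 79.5 CPM in adults. Its log2 fold change of 0.02 (SE 0.14) lay within the spread between cultures.

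Snrpn, for a spliceosomal protein, and Snurf, encoded by the same transcript, had 0 counts in all 6 libraries. In GENCODE M21 all 216 exon bases of Snurf lie inside Snrpn exons on the same strand, but these are only 10.0% of the 2159 exon bases of Snrpn. The annotation behind the counts is unknown and the cause of the 0 counts was not tested, so they are not read as absence of expression.

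Nnat and Blcap lie together on chromosome 2. Nnat encodes neuronatin, a small membrane protein that binds the calcium pump of the endoplasmic reticulum, and is paternally expressed from 157560078 to 157562522, inside Blcap. Nnat measured 144.7, 59.5 and 109 CPM among embryonic cultures versus 73.5, 12.9 and 42.3 CPM in adults. E14.5 replicate 2 lay below adult replicate 1, so the groups overlapped. The stages differed by a log2 value of 1.28 (SE 0.63, adjusted p = 0.366, edgeR), which became 0.85 with adult replicate 2 dropped and 1.91 with adult replicate 1 dropped. The 12 enteric neuron markers summed to 208.5 to 297.9 CPM in the embryonic libraries against 235 to 312.9 CPM in adults. Most of this came from Uchl1, at 93.9 to 263 CPM, and Tubb3, at 12.7 to 137 CPM, while Stmn2 reached 19.2 CPM in E14.5 replicate 2. Of the more restricted genes, Elavl4 was at most 1.13 CPM and Snap25 at most 0.0621 CPM. Blcap, which encodes a small protein linked to apoptosis and is imprinted in brain, measured 93.9, 91.1 and 85.7 CPM at E14.5 beside 77.8, 60.2 and 83.1 CPM in adults. Its groups barely failed to overlap, with a log2 fold change of 0.29 (SE 0.14, adjusted p = 0.364).

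Mest, often used as a sign of fetal mesoderm and paternally expressed, encodes a hydrolase-like protein of the endoplasmic reticulum. It lies on chromosome 6 from 30723547 to 30748465. It varied widely within the adults, with 7.46, 96.6 and 34.6 CPM in replicates 1, 2 and 3 against 71.4, 21.7 and 52.0 CPM in E14.5. The highest value of all came from an adult culture. The log2 difference was 0.07 (SE 0.87, adjusted p = 0.979, edgeR), and its sign turned on single libraries. Dropping adult replicate 1, 2 or 3 gave -0.44, 1.20 or -0.11, and dropping the first E14.5 culture gave -0.34. Adult replicate 2 also had the highest endothelial marker sum, 1941 CPM against 31.0 CPM in adult replicate 1, and the part of endothelial RNA in the Mest level was not tested. Copg2, for a coatomer subunit, shares 912 exon bases with Mest on the opposite strand and varied little, with 32.4, 40.2 and 41.8 CPM among embryonic cultures versus 35.8, 44.0 and 38.4 CPM in the adult cultures (log2 difference -0.05, SE 0.15).

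Gnas was the most abundant member. It encodes the stimulatory G protein alpha subunit, which couples receptors to adenylyl cyclase, and is maternally expressed in a few tissues. Its level was 1331, 1226 and 1201 CPM in the embryonic libraries against 1344, 1307 and 1327 CPM in adults. The groups overlapped, and the log2 fold change of -0.08 (SE 0.12, adjusted p = 0.804, edgeR) was smaller than its error. The table has a single row for all Gnas transcripts, so its alternative imprinted first exons were not told apart. Nespas, the antisense RNA of the locus, had 1 to 13 counts per library and was not tested.

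The 5 remaining members included several genes that lie inside another gene. Peg13, a long noncoding RNA in an intron of Trappc9, measured 35.2, 30.5 and 36.4 CPM at E14.5 beside 47.4, 48.0 and 45.5 CPM in adults. All E14.5 libraries were lower, and the adult values differed by only 1.06-fold. The fitted log2 ratio was -0.46 (SE 0.11), with adjusted p = 0.115 in edgeR and 0.00739 in DESeq2, within a range up to 0.363. Trappc9 itself measured 34.6 ± 3.09 CPM among embryonic cultures versus 36.4 ± 2.28 CPM in adults (SD, n = 3 each). Impact, for an inhibitor of the amino acid sensor GCN2, measured 186, 149 and 135 CPM against 173, 149.7 and 161 CPM in the adult cultures. Zrsr1, a retrogene for a splicing factor inside Commd1, measured 15.6, 15.0 and 14.8 CPM against 15.3, 22.1 and 16.5 CPM. Mcts2, a retrogene inside H13, ranged over 6.30 to 7.51 CPM against 5.21 to 8.10 CPM. Inpp5f, for an inositol phosphatase with an imprinted brain isoform, measured 36.1, 25.2 and 45.5 CPM against 43.9, 37.2 and 39.8 CPM. For these 4 the groups overlapped and the log2 fold changes lay between -0.25 and 0.09.

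Per kilobase of annotated exon, the order of the E14.5 means was led by Gnas at 112, Grb10 at 93.4, Nnat at 57.1 and Slc38a4 at 51.6 CPM per kb. In the adults the leaders were Gnas at 118.5, Grb10 at 46.7 and Impact at 31.5 CPM per kb, and Slc38a4 was at 1.02. Igf2r, Impact and Blcap were close neighbours in the E14.5 order at 30.0, 30.6 and 29.7 CPM per kb, and the ranges of their libraries overlapped on that scale. The lengths come from GENCODE M21, with the authors' annotation not given in the sources used here.

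Grouped by the allele known to be used, 15 tested members are paternally expressed. Of these, 10 had a positive value and the median log2 fold change was 0.48, with 5 above without overlap (Slc38a4, Peg3, Zdbf2, Plagl1 and Mkrn3) and 2 below (Sgce and Peg13). The 3 tested maternally expressed members, Igf2r, Zim1 and Asb4, were all positive, with values of 0.98 to 2.11. Among the 8 whose imprint depends on tissue or isoform, 5 were positive, with a median of 0.16. Higher values in E14.5 were thus found in genes of either parental allele. No test compared these groups.

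The 3 embryonic cultures differed among themselves, and not in the same order for every member. Replicate 1 was the highest E14.5 library for Slc38a4, Peg3, Zim1, Igf2r, Grb10 and Nnat, and replicate 2 the lowest for each of these. For Peg10, Zdbf2, Ddc and Ndn replicate 2 was the highest. Relative to the E14.5 mean on the log2 scale, replicate 2 stood at -2.29 for Slc38a4, -1.38 for Peg3 and -1.50 for Zim1, and at 0.81 for Peg10 and 0.53 for Zdbf2. Both sets drew on several loci. Replicate 2 also had the lowest fibroblast marker sum of the 3, 12570 CPM against 22020 and 24340 CPM, and the highest mesothelial marker sum, 587 CPM against 155 and 142 CPM. All 8 fibroblast and all 8 mesothelial markers with a row were detected, and the part of cell makeup in these patterns was not tested. Over the tested members, the median log2 difference from the adult mean, with 0.5 CPM added, was 0.56, 0.25 and 0.19 in replicates 1, 2 and 3.

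**Figure D4:**
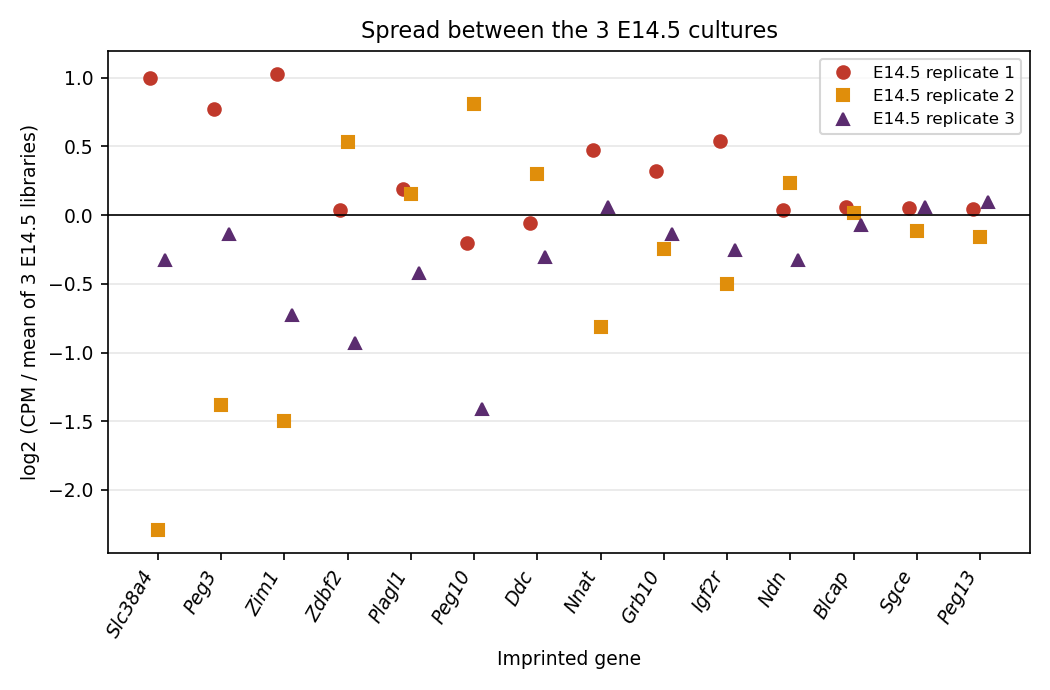
Level of 14 imprinted genes in each E14.5 library relative to the mean of the 3, on the log2 scale, for genes with an E14.5 mean of at least 10 CPM and a log2 fold change of at least 0.25 in size. Replicate 2 lies lowest for Slc38a4, Peg3 and Zim1 and highest for Peg10 and Zdbf2.

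The title prefixes, whose meaning the labels do not give, each join 1 E14.5 and 1 adult library with the same replicate number. The share of forward-strand counts was close within each, at 1.49% and 1.54%, 1.68% and 1.69%, and 1.34% and 1.33%. Whether they mark a shared preparation was not tested. In the pairs of replicates 1, 2 and 3 the log2 difference was 10.5, 2.43 and 5.30 for Slc38a4, 3.56, 0.71 and 2.68 for Peg3, 1.45, 2.18 and 1.44 for Plagl1, and 1.23, 0.85 and 0.87 for Grb10. For Sgce it was -0.49, -0.46 and -0.44, and Mest went both ways, with 3.26, -2.15 and 0.59.

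Adult replicate 2 was the lowest adult library for 16 of the 26 members, among them Plagl1, Grb10, Igf2r, Nnat and Peg10, and it also had the smallest library and the most endothelial RNA. How often it was the lowest over all tested genes was not counted, so this is not read as particular to the members. Leaving it out together with E14.5 replicate 3, which had the highest leukocyte markers, gave log2 fold changes of 6.65 for Slc38a4, 2.86 for Peg3, 1.70 for Plagl1, 1.01 for Grb10 and 1.04 for Igf2r. In that fit 0 members passed edgeR, where 0.266% of all tested genes passed.

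Counts among genes with related tasks are set beside the 1.08% of all tested genes that passed edgeR and the 17.9% with an unadjusted p under 0.05. Of 25 tested genes that set or maintain imprints, 0 passed edgeR, 2 had an unadjusted p under 0.05, and DESeq2 and limma-voom called 0 and 0. The median log2 fold change was 0.07. The 2 of highest level were H3f3b, a histone H3.3 gene, at 223 and 245 CPM, and Trim28, the corepressor recruited by ZFP57, at 167 and 147 CPM in embryonic and adult cultures. Zfp57 itself, named after its values were seen, measured 17.2, 15.9 and 13.1 CPM in the embryonic libraries against 19.9, 20.8 and 21.8 CPM in the adult cultures (log2 difference -0.44, adjusted p = 0.197, edgeR). The other of the 2, Dnmt3a, also named after its values were seen, went the opposite way. It measured 86.2, 60.1 and 104 CPM at E14.5 beside 48.8, 51.9 and 56.9 CPM in adults (log2 difference 0.66, adjusted p = 0.172, edgeR).

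Of 26 tested genes that neighbour the members, 1 passed edgeR (5 at an unadjusted p under 0.05, DESeq2 4, limma-voom 1). Slc38a1, a neutral amino acid transporter gene of the same chromosome 15 cluster as Slc38a4, measured 229.8, 191 and 202 CPM at E14.5 beside 80.6, 77.9 and 77.7 CPM in adults. Its groups were far apart, and it rose by 1.40 on the log2 scale in E14.5 (SE 0.11, adjusted p = 0.0168, edgeR). Dropping E14.5 replicate 1 gave an adjusted p of 0.0662 and dropping adult replicate 3 gave 0.137. The value was 0.0938 with the title prefix as a block and 0.0607 with adult replicate 2 and E14.5 replicate 3 both dropped. Slc38a2, the third transporter of the cluster, measured 338, 115 and 191 CPM against 304, 303.5 and 229 CPM in adults, and its groups overlapped. H13, the host of Mcts2, measured 254 and 279 CPM in embryonic and adult cultures. The median over the 26 neighbours was -0.07.

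Among 17 tested genes linked to insulin and IGF signalling or to Igf2 mRNA, 2 passed edgeR (5 at an unadjusted p under 0.05, DESeq2 4, limma-voom 1). Both encode RNA-binding proteins of Igf2 mRNA. Igf2bp3 rose by 4.03 (SE 0.53) and Igf2bp1 by 1.86 (SE 0.25), each with adjusted p = 0.0361 in edgeR. Both lost the call without E14.5 replicate 1, E14.5 replicate 3, adult replicate 2 or adult replicate 3, Igf2bp1 also without adult replicate 1, with adjusted p up to 0.184 for Igf2bp3 and 0.190 for Igf2bp1. With the title prefix as a block the adjusted p was 0.140 for Igf2bp3 and 0.158 for Igf2bp1, and with adult replicate 2 and E14.5 replicate 3 both dropped it was 0.107 and 0.103. Limma-voom gave 0.0541 for Igf2bp1. The other genes of this list included Akt1 at 481 and 398 CPM and M6pr, the second mannose 6-phosphate receptor gene, at 241 and 230 CPM in embryonic and adult cultures. The median over the 17 was 0.05. Of 17 tested genes around the stimulatory G protein, Gnas included, 0 passed edgeR (4 at an unadjusted p under 0.05, DESeq2 2, limma-voom 0), with Gnai2 at 625 and 640 CPM. Of 13 tested relatives and partners of the MAGE and spliceosomal members, 0 passed edgeR (3 at an unadjusted p under 0.05, DESeq2 1, limma-voom 0), with Maged1 at 486 and 479 CPM and Vps35 at 275 and 240 CPM.

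The 16 tested imprinted genes of the Dlk1-Dio3 and Igf2-Cdkn1c clusters had a median log2 fold change of 0.31, 13 of them positive, beside 0.65 for the 26 genes of the other loci. Of those 16, 2 passed edgeR, where 1.08% of all tested genes did. They were Dlk1 (6.23, adjusted p = 0.0337) and Cdkn1c (6.35, adjusted p = 0.0222), named after their values were seen. The difference between the sets was not tested.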

How the data were processed

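RNA-seq was measured in 6 cultures, 3 per stage. Each library has 1 table, deposited by the authors, of raw whole-number counts by gene symbol in unstranded, forward and reverse columns. Reads were aligned with STAR to mm10, per the submitters' processing notes; its version, the annotation and the counting rule were not given in the sources used here. Reverse-strand counts were used, since forward counts made up 1.33% to 1.69% of stranded gene counts. Reads not assigned to a gene have 4 rows, which held 17.4% to 19.8% of counts and were left out.

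Genes passing filterByExpr in edgeR 4.0.16 (R 4.3.3) were scaled by TMM and tested by the quasi-likelihood test with robust dispersion and Benjamini-Hochberg adjustment over all 13478 genes at 0.05. The SE is the log2 fold change over the square root of F, which is approximate. CPM were computed here from the counts. DESeq2 1.42.0 and limma 3.58.1 (voom), other scalings and filters, the unstranded column, a title-prefix block and leaving out each library were alternatives. Replicates are numbered in accession order. Steps were tested on simulated data, with 50 changed genes of each size. Of true log2 changes of 1, 2, 3 and 4, the share recovered was 18%, 56%, 84% and 86%. Of 135 calls, 13 were false. A true change of the size fitted for many members would thus often not pass. Every member is reported: values per library for those with a mean of 10 CPM in either group, an adjusted p under 0.05, or no overlap with a 2-fold change; from each related list, up to 3 called genes per direction and the 2 of highest level. The members and lists were chosen with earlier results of these data known. Sequences come from RefSeq tables on GRCm38.p6, which matched 26 members, and positions from GENCODE M21.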

Additional observations from a re-analysis of the deposited data

How the results depend on the processing

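The 16 alternatives gave 413 values of log2 fold change for the 26 members, of which 384 kept their direction and their side of the threshold, 17 came to pass it and 12 changed sign. The number of members past the test, 0 in the reported fit, was 1 with upper-quartile scaling, 2 with library size alone, 1 with no filter and 11 with DESeq2, and 0 to 2 when single libraries were left out; the 2 were Peg3 and Grb10, without E14.5 replicate 2. The number of genes past the test over the whole table, 146, was 1427 with DESeq2, 3 to 471 when single libraries were left out and 36 when adult replicate 2 and E14.5 replicate 3 were dropped together, an alternative chosen after seeing the data. With the title prefix as a replicate block it was 2, and 0 members passed; the deviations of libraries that share a prefix had correlations of -0.14, -0.23 and -0.09 over 13478 genes, while their shares of forward-strand counts were close. Whether the prefix marks a shared batch was not tested. The members' median of 0.65 was 0.88 with no filter, which adds 3 members of very low counts, 0.39 with the stricter filter, which drops 2, and 0.53 to 0.84 when single libraries were left out.

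Every sign change came from leaving out libraries, in 7 members whose reported values lay between -0.36 and 0.09. Leaving out single libraries gave -0.44 to 1.20 for Mest, -0.12 to 0.052 for Copg2, -0.12 to 0.094 for Ube3a, -0.19 to 0.056 for Impact, -0.40 to 0.017 for Inpp5f and -0.043 to 0.29 for Mcts2. With the 2 libraries left out together Airn was 0.027, against -0.557 without adult replicate 3 alone, and Inpp5f was -0.457. The cause was not tested. Ndn was 0.31 and Blcap 0.16 with adult replicate 2 dropped. Depth limits Magel2, Usp29, Nespas and Asb4, which had at most 40 counts in any library.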

Other observations

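Reads on the strand opposite to a member were counted in the forward column. Over all genes these were 1.33% to 1.69% of stranded counts. At Mest they were steady, with 47, 64 and 68 counts in E14.5 replicates 1, 2 and 3 and 55, 37 and 42 in the adults, while the sense counts ran from 197 to 2282. They made up 21.8% of stranded Mest counts in adult replicate 1 and 2.02% in E14.5 replicate 1. Copg2 shares exon bases with Mest on that strand. At Ube3a, whose antisense RNA is known from neurons, there were 7 to 29 such counts per library, 0.453% to 1.20% of the total. At Igf2r, where Airn runs on the opposite strand, they made up 0.472% to 0.71% and at Plagl1 1.44% to 2.82%.

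The count of members by library also differed within the stages. E14.5 replicate 1 was the highest E14.5 library for 14 of the 26 tested members, replicate 2 for 5 and replicate 3 for 7. Adult replicate 1 was the highest adult library for 15, replicate 2 for 8 and replicate 3 for 3. The same shares over all tested genes were not counted, so these counts are not read as particular to the members.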
